A study of Mus musculus with 8 samples.

Results

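The creatine kinase energy shuttle and myoglobin were followed through 10 genes, chosen by name for their place in the phosphocreatine and oxygen buffering systems of muscle by their known function. They are Ckm, Ckmt2, Ckb, Ckmt1, Slc6a8, Gatm, Gamt, Ak1, Slc25a4 and Mb, 10 of the 49315 genes of the deposited count table, and all 10 were found in it and passed the filter on low counts. RNA sequencing of hearts gave 8 libraries, 4 from male and 4 from female C57BL/6 mice aged 8 weeks, an inbred laboratory strain, with no treatment or transgene named in the labels. The study compared the transcriptomes of the sexes, which is the contrast given here as male minus female. The labels do not say which part of the heart was taken or that each library came from its own animal, so p-values measure the spread between these libraries, which may be technical.

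Creatine kinases move the high-energy phosphate of ATP onto creatine and back. A mitochondrial isoform makes phosphocreatine beside the adenine nucleotide translocase, which exports ATP from the matrix, and a cytosolic isoform regenerates ATP at the myofibrils and ion pumps. Creatine itself is made from arginine and glycine by the enzymes of Gatm and Gamt, mostly outside the heart, and enters heart muscle through the transporter of Slc6a8. Adenylate kinase joins 2 ADP into ATP and AMP, and myoglobin stores oxygen and eases its diffusion to mitochondria.

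Total counts per library lay between 39612848 and 47097765 in males and between 32746054 and 35467832 in females, so depth and sex moved together. Expression is given as CPM, the count relative to library size, with sizes scaled by the TMM method, which corrects for RNA composition. The 10 genes together held 2.49% to 2.55% of all counts in male libraries and 2.32% to 2.54% in female libraries. Cardiomyocyte markers were abundant in every library. Their summed level, over 8 genes such as Myh6 and Tnnt2, was 78786 to 87654 CPM in males and 84521 to 85759 CPM in females, and 0 of the 8 were called different by edgeR, with 1 at an unadjusted p below 0.05 and 1 called by DESeq2. Fast skeletal muscle myosin genes, which would mark adhering skeletal muscle, were near 0, with Myh1, Myh2 and Myh4 at or below 0.218 CPM in males and 0.209 CPM in females. Of 8 skeletal muscle markers 5 were tested, and 0 were called by edgeR, DESeq2 or limma-voom. At an unadjusted edgeR p below 0.05 were 2, in opposite directions. Tnni2 was at 3.34 ± 0.486 CPM in males and 2.43 ± 0.168 CPM in females, without overlap. Tnnt3 was at 0.477 ± 0.135 CPM in males and 0.777 ± 0.187 CPM in females. White adipocyte markers were lower in males, 6 of 6 called, at a summed 13.1 to 39.3 CPM in males and 69.8 to 129 CPM in females, and fibroblast markers, 2 of 5 called lower in males, summed to 664 to 739 CPM in males and 794 to 808 CPM in females. In bulk tissue, fewer cells of a type and less RNA per cell cannot be told apart.

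Of this group, 1 gene rose in males and none fell. Ckmt2, the sarcomeric mitochondrial creatine kinase, was 1.13-fold higher in males and the only 1 of the 10 genes called at an adjusted p below 0.05. Ckm, the muscle cytosolic creatine kinase, was 1.11-fold higher in males and missed that threshold, and the remaining 8 genes were not called. Over all 16180 genes tested with the quasi-likelihood test of edgeR, 613 were called, a background of 3.79%, of which 329 were higher in males (2.03%) and 284 lower (1.76%). At an unadjusted p below 0.05, 4 of the 10 genes passed (Ckmt2, Ckm, Mb and Ak1), where 19.5% of all genes did. The median log2 fold change was 0.10 over the 10 genes and 0.00 over all genes tested, and 10 of 10 fold changes were positive where 49.7% of all genes were. With library totals alone and no TMM factor, 771 genes were called, 189 higher and 582 lower in males, the median of all genes moved to -0.06, and 6 of the 10 fold changes were positive. The signs of Ckb, Slc6a8, Gamt and Slc25a4 turned negative there.

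**Figure D1:**
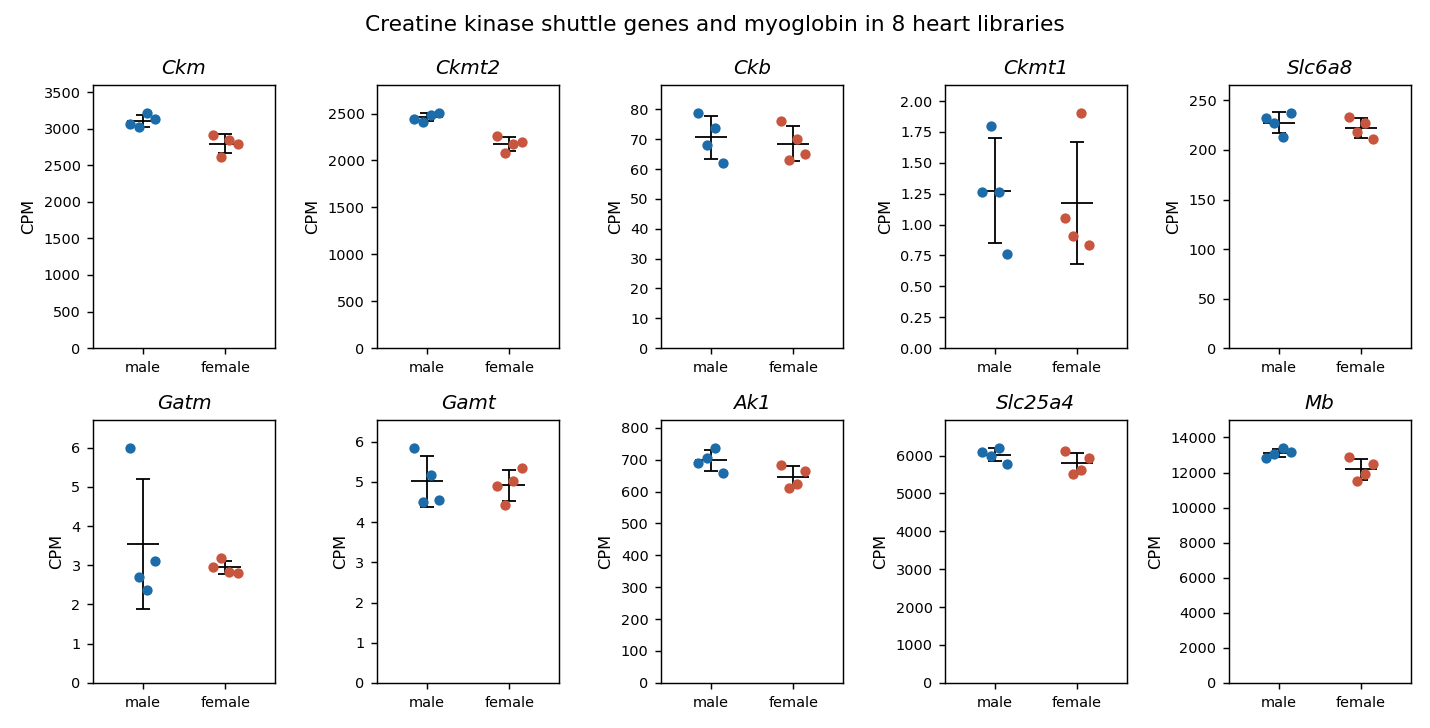
CPM of each of the 10 genes in the 4 male (blue, left) and 4 female (red, right) heart libraries, with the mean and SD as black bars and axes starting at 0. The male and female points of Ckmt2 and Ckm do not overlap on this scale, those of the other genes do, and Gatm has 1 male library at 5.99 CPM.

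**Figure D2:**
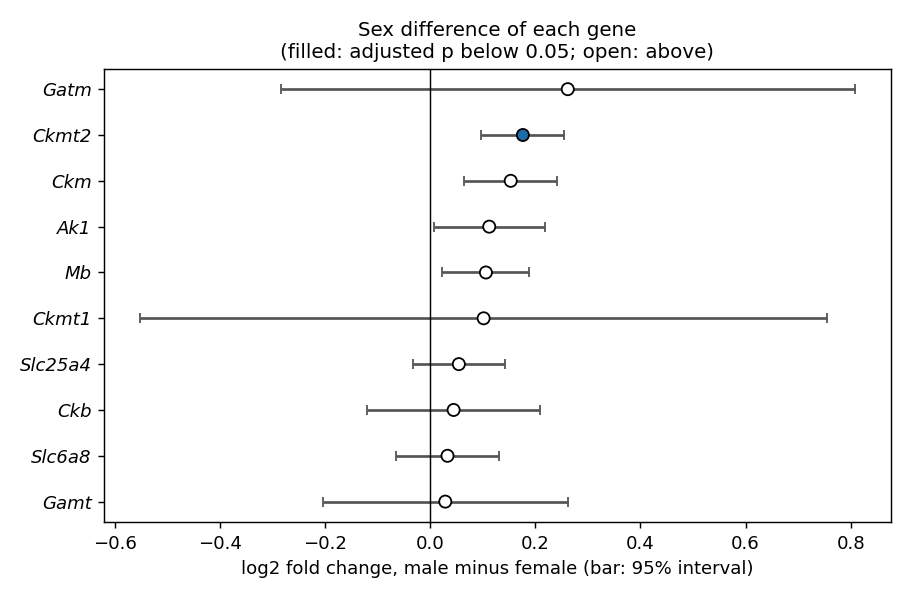
Log2 fold change (male minus female) of each gene with its 95% interval from the edgeR fit, filled where the adjusted p was below 0.05. Ckmt2 at 0.18 is the filled point, and the widest intervals belong to Ckmt1 and Gatm, which had the fewest counts.

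The mitochondrial isoform Ckmt2 (ENSMUSG00000021622, chromosome 13, 91853387 to 91876885, minus strand) catalyses phosphocreatine synthesis between the mitochondrial membranes of heart and skeletal muscle. It was at 2447, 2407, 2489 and 2504 CPM in the male libraries and at 2259.65, 2078, 2179 and 2197 CPM in the female libraries. Every male value lay above every female value on this scale. The means were 2462 ± 44.0 CPM in males and 2178 ± 75.4 CPM in females (SD, n = 4 each). The log2 fold change was 0.18 (SE 0.04, 95% interval 0.10 to 0.26; edgeR adjusted p = 0.022). The call was lost without male replicate 3 (adjusted p = 0.067) and without female replicate 2, 3 or 4 (0.057, 0.056 and 0.059), and in limma on the deposited normalized table (0.090). The log2 fold change stayed between 0.12 and 0.19 over 20 alternatives, with adjusted p from 8.1e-05 to 0.090. Mitochondrially encoded RNA, which also differed between the sexes, held 12.2% ± 0.196 of counts in males and 10.7% ± 0.616 in females. With those genes removed before scaling, 16148 genes were tested and Ckmt2 was at 0.18 (edgeR adjusted p = 0.021). That removal changes only the scaling, and the part of mitochondrial content in the Ckmt2 level was not tested.

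The cytosolic muscle isoform Ckm (ENSMUSG00000030399, chromosome 7, 19404776 to 19422841, plus strand) acts at the M-band of the sarcomere and at the calcium pumps. It was at 3066, 3018, 3212 and 3128 CPM in the male libraries and at 2919, 2615, 2844 and 2794 CPM in the female libraries. These groups did not overlap either, with female replicate 1 next below male replicate 2. The means were 3106 ± 83.7 CPM in males and 2793 ± 130 CPM in females (SD, n = 4 each), with a log2 fold change of 0.15 (SE 0.04, 95% interval 0.06 to 0.24; edgeR adjusted p = 0.063). In the Wald test of DESeq2 the adjusted p was 0.0079, in limma-voom 0.0502, and over 20 alternatives it ran from 0.0079 to 0.17. On library totals alone the log2 fold change was 0.10. Ckm shares 451 exon bases with the opposite-strand gene A930016O22Rik, and Ckmt2 shares 84 with 1700119I11Rik, whose reads cannot be told apart without strand. Ckm and Ckmt2 were thus 2 of 10 genes whose libraries separated by sex on the CPM scale, where 12% of all genes tested did so. Of all genes tested, 6.39% separated with the higher values in males and 5.66% with the lower.

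**Figure D3:**
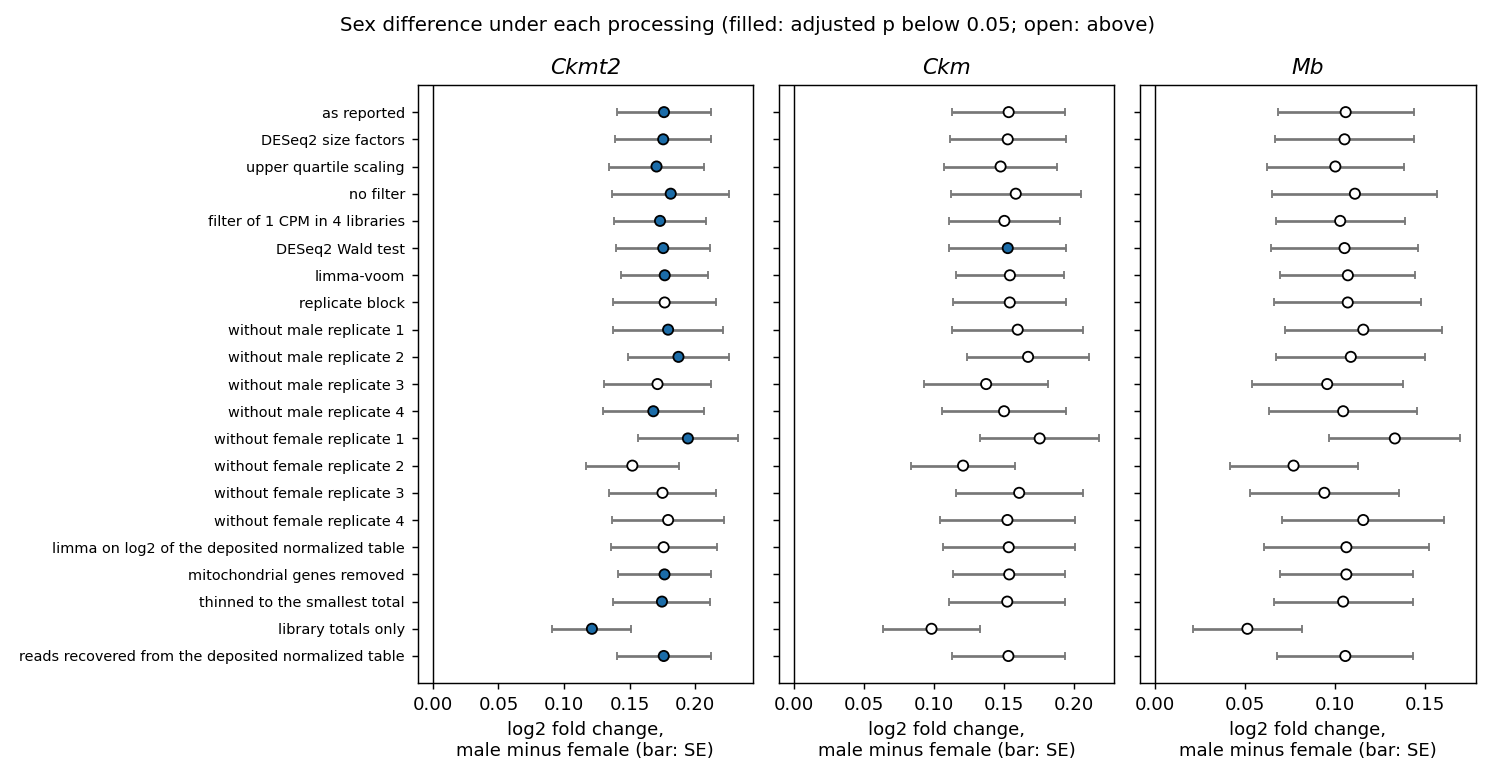
Log2 fold change (male minus female, bar: SE) of Ckmt2, Ckm and Mb as reported and under each of 20 alternatives, filled where the adjusted p was below 0.05. All values lie above 0, Ckmt2 passed in 14 of 20 alternatives, Ckm in 1 and Mb in 0.

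The share of all genes that passed set the scale for these counts. It was 3.73% with DESeq2 size factors, 3.78% with upper quartile scaling, 3.8% in limma-voom and 5.96% in the DESeq2 Wald test, and it was 3% without a filter and 4.3% with a filter of 1 CPM. It was 3.65% with mitochondrial genes removed, 3.36% after thinning all libraries to the smallest total, 4.77% on library totals alone and 3.81% on the reads recovered from the deposited normalized table. It was 1.06% in limma on that table and 2.64% with the replicate number in the fit. Leaving out male replicates 1 to 4 gave 2.8%, 3.01%, 1.94% and 2.67%, and leaving out female replicates 1 to 4 gave 2.53%, 2.15%, 2.3% and 2.53%.

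The promoters of Ckmt2 and Ckm are shown because these genes separated the sexes on the CPM scale, though not on the TPM scale given below. That of Ckb is shown as the brain-type counterpart of Ckm, which separated the sexes on neither. The windows hold 250 bases before and 50 after the annotated start, from RefSeq on GRCm38.p6, the build of the deposited coordinates. For Ckm this RefSeq start lies inside the gene as counted, which begins at 19404776. Capitals mark E-boxes (CANNTG, the core bound by muscle bHLH factors) and MEF2 sites, both searched on both strands.
Ckmt2, chr13:91876836-91877135, minus strand: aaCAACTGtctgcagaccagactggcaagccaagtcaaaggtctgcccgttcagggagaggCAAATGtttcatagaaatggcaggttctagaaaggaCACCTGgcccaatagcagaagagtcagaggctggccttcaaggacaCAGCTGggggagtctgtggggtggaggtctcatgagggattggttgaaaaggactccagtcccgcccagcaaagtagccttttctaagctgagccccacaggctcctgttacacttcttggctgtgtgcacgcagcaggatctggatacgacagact
Ckm, chr7:19410844-19411143, plus strand: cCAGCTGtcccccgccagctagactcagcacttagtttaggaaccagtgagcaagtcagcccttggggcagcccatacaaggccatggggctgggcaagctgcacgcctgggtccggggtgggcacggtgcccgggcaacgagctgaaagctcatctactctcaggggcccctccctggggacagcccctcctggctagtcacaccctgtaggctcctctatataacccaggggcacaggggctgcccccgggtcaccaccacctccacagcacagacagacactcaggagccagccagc
Ckb, chr12:111672289-111672588, minus strand: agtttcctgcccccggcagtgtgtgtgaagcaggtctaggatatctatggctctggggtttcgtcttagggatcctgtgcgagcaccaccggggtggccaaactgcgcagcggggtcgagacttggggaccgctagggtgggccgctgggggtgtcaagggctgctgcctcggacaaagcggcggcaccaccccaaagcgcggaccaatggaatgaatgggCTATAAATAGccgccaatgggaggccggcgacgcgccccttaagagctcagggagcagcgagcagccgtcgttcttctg
The Ckmt2 window held 4 E-boxes, the Ckm window 1 and the Ckb window 0. E-boxes were in 72.3% of all 32851 windows of the table, so they are common in any window of this length. The capitals in Ckb are a match to the MEF2 motif that overlaps a TATAAA match. The MEF2 motif was in 3.19% and TATAAA in 13.6% of all windows. The table had 15 windows for 9 of the 10 genes, of which 13 held an E-box, 2 a MEF2 site, 3 a TATAAA, 2 the AAGGTCA core of estrogen-related receptor sites and 0 a CArG box (72.3%, 3.19%, 13.6%, 4.72% and 1.63% of all windows, in that order). Such matches describe the letters in these windows.

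The brain-type and ubiquitous isoforms were minor in heart. Ckb (ENSMUSG00000001270, chromosome 12, 111669355 to 111672338, minus strand) encodes the cytosolic creatine kinase of brain, smooth muscle and brown fat. It was at 78.7, 68.2, 73.9 and 62.0 CPM in males and at 76.0, 63.2, 70.2 and 64.9 CPM in females. The groups overlapped through their whole range, with a log2 fold change of 0.04 (95% interval -0.12 to 0.21; edgeR adjusted p = 0.80), which is -7.97% to 15.6% in males relative to females. The sign turned without male replicate 1, to -0.011. Markers of cell types known to express Ckb did differ between the sexes. The summed level of 4 brown adipocyte markers was 29.8 to 40.5 CPM in males and 43.9 to 133 CPM in females. Of the 4, edgeR called 2 lower in males and limma-voom called 1. Ucp1 was between 0.0234 and 3.602 CPM in males and between 9.37 and 81.1 CPM in females. Cidea made up most of the male sum, at 27.3 to 34.3 CPM in males and 31.2 to 46.2 CPM in females. It overlapped between the sexes and was not called (edgeR adjusted p = 0.14). The summed level of 4 smooth muscle markers was 162 to 202 CPM in males and 216 to 257 CPM in females, with 1 of 4 called lower in males. The part of brown adipocyte and smooth muscle RNA in the Ckb level was not tested. Ckmt1, the ubiquitous mitochondrial isoform known from brain and epithelia, had 212 counts over the male libraries and 165 over the female libraries. Its CPM ran from 0.764 to 1.80 in males and from 0.836 to 1.90 in females, and the 95% interval of its log2 fold change was -0.55 to 0.76.

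Set on a common per-length scale, the creatine kinase isoforms kept nearly the same proportions in both sexes. The scale is TPM, counts divided by the summed exon length of each gene and then scaled to the same sum in every library, with no TMM factor. Ckmt2 and Ckmt1 together made up 59.8% ± 0.395 of creatine kinase transcripts in males and 59.3% ± 0.423 in females (SD, n = 4 each), a difference of 0.459 percentage points (exact two-sided permutation test, p = 0.14, adjusted p = 0.34). Ckb was 4.30% ± 0.433 of the cytosolic pair Ckm and Ckb in males and 4.61% ± 0.208 in females, a difference of -0.315 points (exact permutation test, p = 0.23, adjusted p = 0.34). Slc25a4 was 94.1% ± 0.241 of the translocases Slc25a4, Slc25a5 and Slc25a31 in males and 94.1% ± 0.147 in females (exact permutation test, p = 0.77, adjusted p = 0.77). The p-values were adjusted over these 3 shares, 4 against 4 libraries can give no less than 0.029, and the sexes overlapped in each share. Dividing by the length of the principal transcript of the GENCODE M21 annotation instead gave a mitochondrial share of 58.4% in males and 57.9% in females.

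On the same TPM scale the 5 most abundant of the 10 genes ran in the same order in every library. Mb came first at 24579 ± 448 TPM in males and 24556 ± 781 TPM in females. Slc25a4 followed at 5999.7 ± 134 TPM in males and 6213 ± 171 TPM in females, then Ckmt2 at 3887 ± 78.2 TPM in males and 3699.7 ± 110 TPM in females, and Ckm at 2502 ± 64.4 TPM in males and 2419.9 ± 110 TPM in females. Ak1 was at 631 ± 26.2 TPM in males and 628 ± 19.6 TPM in females. Each of these levels was separated from the next over all 8 libraries, and the mitochondrial isoform stood above the cytosolic one by 1.54-fold. On this scale the sexes overlapped in Ckmt2, where female replicate 3 was at 3812 TPM and male replicate 2 at 3809 TPM, and in Ckm, where female replicate 3 was at 2538 TPM and male replicate 2 at 2437 TPM. Ckb (112 ± 10.8 TPM in males, 117 ± 9.95 TPM in females) and Slc6a8 (103 ± 5.22 TPM in males, 108 ± 6.45 TPM in females) overlapped, and with principal transcript lengths Slc6a8 came out above Ckb. Gamt was at 8.14 ± 0.994 TPM in males and 8.59 ± 0.552 TPM in females, and below it Gatm (2.76 ± 1.29 TPM in males, 2.48 ± 0.187 TPM in females) overlapped with Ckmt1 (1.20 ± 0.398 TPM in males, 1.20 ± 0.532 TPM in females).

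**Figure D4:**
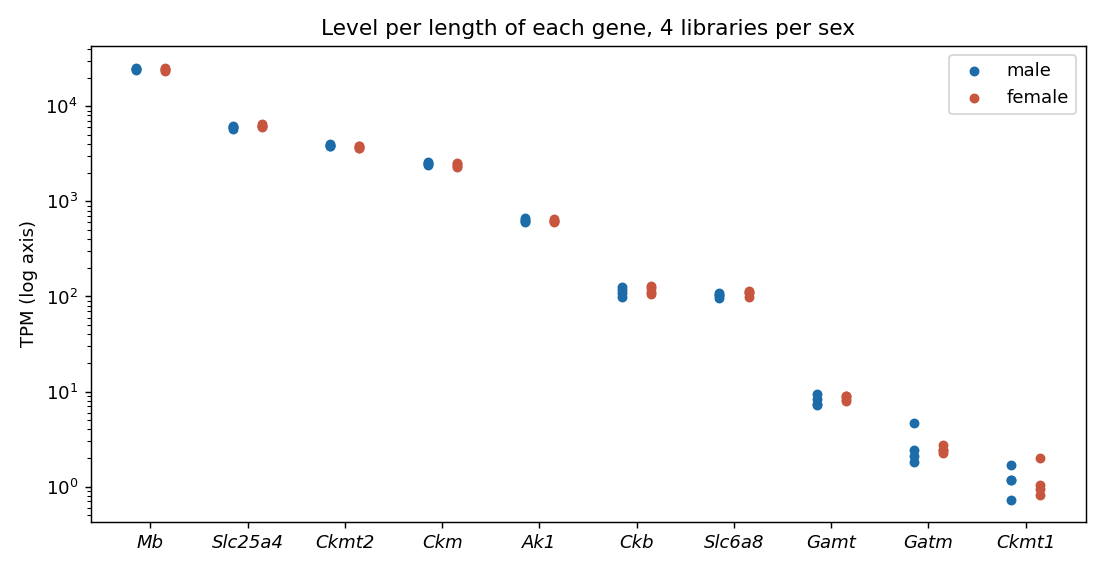
TPM (log axis) of the 10 genes in the 4 male (blue, left of each pair) and 4 female (red) libraries, sorted by mean level. Mb averages 24579 TPM in males and Ckmt1 1.20 TPM, and neighbours separate in all libraries except Ckb from Slc6a8 and Gatm from Ckmt1.

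Myoglobin was the most abundant of the group, and its CPM was slightly higher in males without passing the test. Mb (ENSMUSG00000018893, chromosome 15, 77015489 to 77050670, minus strand) was at 12854, 13046, 13405 and 13159.6 CPM in males and at 12870.1, 11499.5, 11920.3 and 12459 CPM in females. Female replicate 1 lay above the lowest male library and the other 3 female libraries lay below all males. The log2 fold change was 0.11 (SE 0.04, 95% interval 0.02 to 0.19; edgeR adjusted p = 0.15), 0.08 without female replicate 2 and 0.05 on library totals alone. Among other globins, Ngb (neuroglobin) was too low to test, and Cygb, cytoglobin of fibroblasts and vessel walls, was at 61.2 ± 3.68 CPM in males and 67.9 ± 1.97 CPM in females (log2 fold change -0.15, edgeR adjusted p = 0.10). It passed on library totals alone (-0.21, adjusted p = 0.043).

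The other high-energy phosphate genes of the group had small positive log2 fold changes after TMM scaling. Ak1, the main cytosolic adenylate kinase of muscle (ENSMUSG00000026817, chromosome 2, 32621758 to 32635058, plus strand), was at 691, 705, 737 and 658 CPM in males and at 684, 611, 622 and 665 CPM in females. The groups overlapped, with a log2 fold change of 0.11 (95% interval 0.01 to 0.22; edgeR adjusted p = 0.23). Slc25a4, the muscle adenine nucleotide translocase that exchanges matrix ATP for cytosolic ADP (ENSMUSG00000031633, chromosome 8, 46206797 to 46211284, minus strand), was at 6083, 5999, 6202 and 5789 CPM in males and at 6107, 5515, 5628 and 5929 CPM in females. Its groups overlapped as well, and its log2 fold change was 0.05 (95% interval -0.03 to 0.14; edgeR adjusted p = 0.49) and -8.67e-05 on library totals alone. The interval is -2.25% to 10.3% in males relative to females. On the TPM scale, without a TMM factor, the mean of Slc25a4 was lower in males (5999.7 TPM) than in females (6213 TPM).

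Within a sex, some libraries were low or high in several genes of the group. On the CPM scale, female replicate 2 had the lowest value of all 8 libraries in 6 of the 10 genes, namely Ckm, Ckmt2, Ak1, Slc25a4, Mb and Gamt. Male replicate 3 had the highest value in 4, Ckm, Ak1, Slc25a4 and Mb. On the TPM scale, which has no TMM factor, female replicate 2 was lowest in 3 genes (Ckm, Ckmt2 and Mb), male replicate 4 in 4 (Ckb, Ckmt1, Ak1 and Slc25a4), and male replicate 3 was highest in 2 (Ckm and Ak1). The sum over the 10 genes was 25464 to 26340.3 CPM in males and 22608 to 25158 CPM in females. Female replicate 2 also had the least red cell RNA, with 556 CPM over 5 globin and heme genes such as Hbb-bs, where the male libraries had 2518 to 7630.2 CPM and the other female libraries up to 8805 CPM. The part of blood content in these levels was not tested.

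Creatine supply genes were low or flat. Slc6a8, the creatine transporter (ENSMUSG00000019558, chromosome X, 73673150 to 73682502, plus strand), ran from 213 to 237 CPM in males and from 211 to 233 CPM in females. Its groups overlapped, with a log2 fold change of 0.03 (95% interval -0.07 to 0.13; edgeR adjusted p = 0.75). That interval is -4.44% to 9.53% in males relative to females. Gamt, which methylates guanidinoacetate to creatine (ENSMUSG00000020150, chromosome 10, 80258151 to 80261012, minus strand), ran from 4.49 to 5.85 CPM in males and from 4.42 to 5.34 CPM in females, with a log2 fold change of 0.03 (95% interval -0.20 to 0.26; edgeR adjusted p = 0.92).

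Gatm, which encodes the first enzyme of creatine synthesis (ENSMUSG00000027199, chromosome 2, 122594467 to 122611303, minus strand), varied through 1 library. It was at 5.99, 2.69, 2.37 and 3.10 CPM in males and at 2.96, 3.18, 2.84 and 2.81 CPM in females. Male replicate 1 stood alone, and the other 3 male values overlapped with the female ones. The log2 fold change was 0.26 (95% interval -0.28 to 0.81; edgeR adjusted p = 0.62) with all libraries and -0.11 without male replicate 1. The same library held the highest value of 3 of 3 macrophage markers, none of which edgeR called between the sexes (1 at an unadjusted p below 0.05 and 1 called by DESeq2). Their summed level was 234 CPM in it, 129 to 134 CPM in the other males and 110 to 125 CPM in females. Adgre1, which encodes the surface protein F4/80, was at 62.8 CPM in it, 11.3 to 13.9 CPM in the other males and 10.9 to 13.3 CPM in females. The other markers rose less. C1qa was at 97.8 CPM in it, 58.1 to 59.5 CPM in the other males and 45.2 to 60.2 CPM in females. Csf1r was at 73.6 CPM in it, 59.1 to 62.1 CPM in the other males and 52.7 to 58.8 CPM in females. Among the 9236 genes that averaged 3 or more on the log2 CPM scale, the profiles nearest to that of Gatm over the 8 libraries belonged to Arhgap30, Pik3cd and Lcp1, with root mean square differences of 0.12, 0.12 and 0.13 in centred log2 CPM. Lcp1, the actin bundler L-plastin of leukocytes, was at 67.6 CPM in male replicate 1, at 21.5 to 27.1 CPM in the other males and at 24.1 to 29.7 CPM in females. The part of leukocyte RNA in the Gatm level was not tested.

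**Figure D5:**
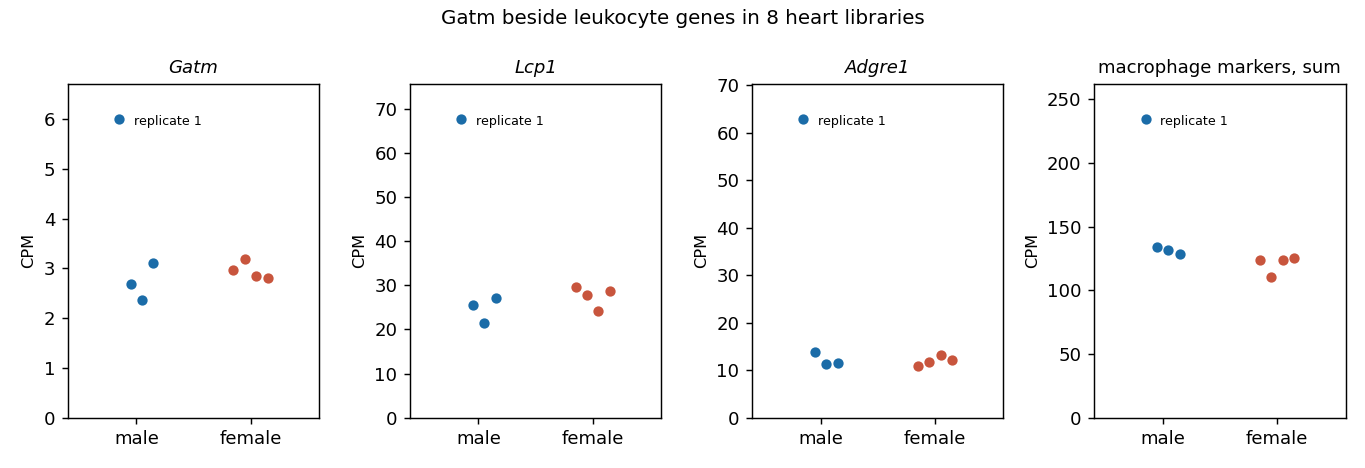
CPM of Gatm, Lcp1 and Adgre1 and the summed CPM of 3 macrophage markers (Adgre1, Csf1r, C1qa) in the 4 male (blue, left) and 4 female (red, right) libraries, 1 point per library. Male replicate 1 is the highest library in each panel, at 5.99, 67.6, 62.8 and 234 CPM.

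Genes around the shuttle gave calls in both directions. Over 6 lists with 48 genes, 41 were tested by edgeR, of which 3 were higher in males, 2 were lower in males and 36 were not called. The 5 calls were 12.2% of the list genes tested, beside 3.79% of all genes. The median log2 fold change of the 41 tested list genes was 0.00, as over all genes tested. Of 8 further adenylate kinases 4 were tested, and 2 of these, both of the mitochondrial matrix, were higher in males. Ak3, which phosphorylates AMP with GTP, was at 123 ± 4.29 CPM in males and 109 ± 4.05 CPM in females (log2 fold change 0.18, edgeR adjusted p = 0.031). Ak4 was at 45.3 ± 1.503 CPM in males and 39.5 ± 2.501 CPM in females (0.20, adjusted p = 0.045). Each passed in 2 of the 8 leave-one-out fits, and the adjusted p reached 0.091 for Ak3, without male replicate 3, and 0.11 for Ak4, without female replicate 2. On library totals alone Ak3 and Ak4 were at 0.12 and 0.14 (adjusted p = 0.089 and 0.10), in limma on the deposited normalized table neither passed (0.11 and 0.14), and with upper quartile scaling Ak4 did not pass (0.054).

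Of 12 genes of AMP metabolism and AMPK, the kinase that senses AMP, 11 were tested and edgeR called 1, higher in males. This was Prkab2, the beta subunit found in muscle AMPK, at 65.8 ± 3.68 CPM in males and 53.6 ± 5.25 CPM in females (log2 fold change 0.30, edgeR adjusted p = 0.030). It passed in 3 of the 8 leave-one-out fits, reaching 0.086 without female replicate 3. On library totals alone it was at 0.24 (adjusted p = 0.052). The catalytic subunit Prkaa2 was at 114 ± 5.29 CPM in males and 114 ± 1.46 CPM in females. Of the 11 log2 fold changes of this list, 9 were negative and 2 positive, where 49.7% of all genes were positive. At an unadjusted edgeR p below 0.05 were 5 of the 11, where 19.5% of all genes were. These were Prkab2 and Adk (0.11), higher in males, and Ampd2 (-0.21), Prkag2 (-0.15) and Prkaa1 (-0.15), lower in males. Of 9 genes that carry adenine nucleotides or phosphate across the mitochondrial membranes, 1 was lower in males. This was Slc25a23, a calcium-regulated carrier of ATP-magnesium and phosphate, at 61.0 ± 1.26 CPM in males and 68.3 ± 2.51 CPM in females (-0.16, edgeR adjusted p = 0.034). Of the 8 leave-one-out fits it passed in 2, reaching 0.086 without female replicate 2. The phosphate carrier Slc25a3 was at 1608 ± 15.2 CPM in males and 1565 ± 51.7 CPM in females, and the channel Vdac1 at 979 ± 15.9 CPM in males and 946 ± 23.2 CPM in females, both with log2 fold changes up to 0.05 and not called.

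Of 9 regulators of oxidative muscle genes, edgeR called 1, which was lower in males, and DESeq2 called 2. Ppargc1b, a coactivator of mitochondrial genes, was at 28.7, 30.0, 25.6 and 26.0 CPM in males and at 33.0, 40.5, 40.9 and 35.1 CPM in females. The groups did not overlap (log2 fold change -0.44, SE 0.08, edgeR adjusted p = 0.011), and it passed in each of the 8 leave-one-out fits, though not in limma on the deposited normalized table (adjusted p = 0.072). Its relative Ppargc1a was at 94.8 ± 12.9 CPM in males and 85.5 ± 2.18 CPM in females (0.15, edgeR adjusted p = 0.31). The second DESeq2 call was Epas1, which encodes a hypoxia-inducible transcription factor, at 415 ± 22.7 CPM in males and 373 ± 16.6 CPM in females, with no overlap (0.16, edgeR adjusted p = 0.10, DESeq2 adjusted p = 0.027). Of 8 genes of arginine, methionine and methyl supply 7 were tested and 0 were called by edgeR, DESeq2 or limma-voom. The 1 gene at an unadjusted p below 0.05 was Mat1a, the liver-type synthetase of the methyl donor of Gamt, at 0.972 ± 0.330 CPM in males and 0.611 ± 0.0567 CPM in females (unadjusted p = 0.030, adjusted p = 0.20). It passed without male replicate 4 (adjusted p = 0.035). Of 4 liver markers 2 were called higher in males, with a summed level of 39.2 to 47.2 CPM in males and 25.7 to 30.6 CPM in females, and their part in the Mat1a level was not tested.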

How the data were processed

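The authors deposited raw counts per gene. The submitters' processing notes name Trimmomatic 0.36, STAR 2.5.2b, Subread 1.5.2 with featureCounts, and the build GRCm38 (mm10). The annotation, the strand setting and the treatment of multi-mapping reads are not given in the sources used here, so exon bases that Ckm, Ckmt2, Ckmt1 and Mb share with opposite-strand genes are uncertain. Libraries were made from 1 µg of Trizol-extracted RNA with a TruSeq kit, per the labels' protocols. The authors also deposited a normalized signal table of 16160 genes, whose values are counts divided by 1 size factor per library. Multiplied back, 100% came out whole within 0.01 and 100% equalled the raw counts. The edgeR fit on these recovered reads, which called 613 genes, thus repeats the main fit on the same counts. It is counted among the 20 alternatives but is no independent check.

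Low genes were removed by filterByExpr (at least 10 counts, 15 in total). Male and female libraries were compared by the quasi-likelihood test of edgeR 4.0.16 (R 4.3.3) after TMM scaling, and p-values were adjusted over the 16180 genes by the Benjamini-Hochberg method, with 0.05 as threshold. Standard errors were derived from the F statistic, as the size of the log2 fold change divided by its square root. One count was worth 0.0218 to 0.0302 CPM, and log2 CPM used a prior count of 2. Shares were compared with an exact two-sided permutation test. The procedure was tested on simulated data. The folds put in were all larger than those of Ckmt2 and Ckm, so recovery of such small differences was not tested. Replicates of a sex differed by more than sampling noise (chi-square per gene 7.47 to 23.8).

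The 10 genes and all lists were chosen with earlier results of these data known. Named beside them are, per list and direction, up to 2 called genes of smallest p (the smallest p where none passed), and the 3 genes nearest in profile to each of the 3 members of widest range (Gatm, Ckmt1, Gamt). Prkaa2, Adk, Ampd2, Prkag2, Prkaa1, Slc25a3, Vdac1, Ppargc1a, Epas1 and the marker genes were named after their values were seen. Alternatives were DESeq2 1.42.0, limma 3.58.1, other scalings and filters, a replicate block, leaving out single libraries, and removal of mitochondrial genes. Added after the data were seen were thinning, library totals alone, recovered reads and principal transcript lengths.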

Additional observations from a re-analysis of the deposited data

Results flagged for a closer look

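Of 64 groups of 4 libraries checked, 5 had 1 library far from the other 3 by Dixon's criterion, which chance passes in about 1 of 20 groups. The summed CPM of the 10 genes was 26340.3 in male replicate 3, above the other males. The summed macrophage markers were at 234 CPM in male replicate 1, above the other males, and at 110.2 CPM in female replicate 2, below the other females. The summed skeletal muscle markers were at 5.96 CPM and the summed liver markers at 39.2 CPM in male replicate 4, both below the other males.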

How the results depend on the processing

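Of the 10 genes, Ckm, Ckmt2, Ak1 and Mb kept a positive log2 fold change in all 20 alternatives. With 1 library left out, the genes called ran from 315 to 490, the members called from 0 to 1 and the list genes called from 1 to 4. DESeq2 called 964 genes and 2 members. Limma on the deposited normalized table called 172 genes, 0 members and 0 list genes. Replicate numbers did not pair the libraries (correlations of same-numbered deviations -0.05 to 0.05, and 0 of 4 males were nearest to their own number). With the replicate block, 427 genes, 0 members (Ckmt2 adjusted p = 0.056) and 1 list gene were called (adjusted p = 0.0503 for Ak3, 0.0999 for Ak4, 0.069 for Prkab2 and 0.058 for Slc25a23). The paired sign-flip tests of the shares cannot pass 0.05.

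Signs turned in genes that were not called. With 1 library left out, the log2 fold change ran from -0.011 to 0.10 for Ckb (lowest without male replicate 1), from -0.11 to 0.44 for Ckmt1 (without male replicate 2, with -0.01 and -0.03 without female replicates 2 and 4), from -0.11 to 0.41 for Gatm (without male replicate 1) and from -0.053 to 0.077 for Gamt (without male replicate 1, with -0.02 without female replicate 2). On library totals alone, Ckb was at -0.010, Slc6a8 at -0.022, Gamt at -0.026 and Slc25a4 at -8.67e-05, and the cause was not tested. The male minus female difference of the Slc25a4 share ran from -0.055 to 0.13 points with 1 library left out. The genes of fewest counts were Ckmt1, Gatm and Gamt, and the SE of Gatm was 0.25 with all libraries and 0.13 without male replicate 1.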

Other observations

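The profiles nearest to that of Ckmt1 over the 8 libraries, among 9236 genes, were those of Dnajb1, Adcy1 and Gadd45b, with root mean square differences of 0.28, 0.31 and 0.31 in centred log2 CPM. Dnajb1, a heat shock co-chaperone gene, was at 40.2, 37.8, 45.8 and 29.1 CPM in males and at 28.6, 26.5, 45.5 and 31.8 CPM in females. Those nearest to Gamt were Blvrb, Sh3pxd2b and Abi1, at 0.05, 0.06 and 0.07. Ckmt1 had 28 to 71 counts per library and Gamt 161 to 241, so counting noise is part of both profiles. The nearest genes are a ranking among 9236, and joint regulation was not tested. Blvrb, a biliverdin reductase gene, was at 14.2 ± 1.80 CPM in males and 13.8 ± 1.26 CPM in females (SD, n = 4 each), and neither of these sets of values separated the sexes.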
